A study of Arabidopsis thaliana with 28 samples.

Results

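ATCOPIA86, ATCOPIA51, ATCOPIA38B and ATCOPIA79 are Copia retrotransposon families of Arabidopsis thaliana with next to no RNA in wild-type seedlings. They are 4 of the 25 Copia families, and of the 83 named element families, in a table that sets the topoisomerase VI mutant caa39 against the wild type. They were chosen by their measured wild-type level: a mean below 10 normalised reads, leaving out the well-known families ATCOPIA93, ATCOPIA78, ATCOPIA13 and ATCOPIA21. A normalised read is a read number divided by the size factor of its library.

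RNA came from the aerial parts of 6 day-old seedlings, in 3 libraries of the caa39 mutant and 3 of wild-type Col-0, biological replicates by the series design. Both genotypes were grown on half-strength Murashige and Skoog medium with sucrose in long days, and the labels name no treatment. The caa39 plants carry a weak mutant allele of the A subunit of topoisomerase VI, an enzyme that cuts both strands of one DNA helix to let another pass. The plants are mutant throughout, and the aerial parts were taken whole. RNA from a few cells with much of a transcript and from many cells with little of it therefore cannot be told apart.

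Copia elements are LTR retrotransposons: identical long terminal repeats flank a reading frame for the capsid-like gag protein and the pol enzymes, with integrase placed before reverse transcriptase. They move by a copy-and-paste cycle through an RNA that the left repeat starts, so that RNA is both the template for new copies and the message for the enzymes. In Arabidopsis most copies are kept silent by DNA methylation and by dimethylation of histone H3 at lysine 9, and many are truncated remnants. A family value is not split by copy, so it does not tell which copy was transcribed or whether the transcript started in the element or in a neighbouring gene. Reads may also be shared between related families.

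The table holds group means only. Read numbers per library were solved from the digits of those means, and the solved libraries are called a, b and c by falling size factor, letters that carry no replicate number. The caa39 libraries held 20791 to 31566 reads in the listed entries and the wild-type libraries 22924 to 26678. These totals are not sequencing depths. One read was worth 0.732 to 1.09 normalised reads in caa39 libraries and 1.06 to 1.22 in wild-type libraries. The mutated gene and tissue marker genes were not analysed here, because the table used covers element families.

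All 4 families rose in caa39: the authors' deposited table, where each entry has an adjusted p below 0.05, gives them as higher. Of all 83 named families 48.2% were listed as higher, but a wild-type mean this close to 0 leaves no room for a listed fall. Because the choice of families used the means of this same comparison, their differences are described without a test. Together the 4 families held 104 reads in caa39 and 6 reads in the wild type. Their summed level was 27.1, 35.6 and 26.3 normalised reads in caa39 libraries a, b and c, against 4.24, 1.15 and 1.22 in wild-type libraries a, b and c. The sums averaged 29.6 ± 5.14 in caa39 and 2.20 ± 1.76 in the wild type (SD, n = 3 each), and the lowest caa39 library lay well above the highest wild-type library. From the pooled reads the ratio was 13.1, with an exact 95% counting interval of 5.81 to 36.5. Wild-type library a held 4 of the 6 wild-type reads: the log2 ratio of the mean sums, 3.75, was 4.65 without it. Such intervals cover counting error only, and not the spread between plants.

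In all 4 families each caa39 library lay above every wild-type library, as the plot of levels by library shows. Libraries of the genotypes were separated in this way in 98.8% of the 83 named families, so the separation is the rule in this list and not a mark of these families.

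**Figure D1:**
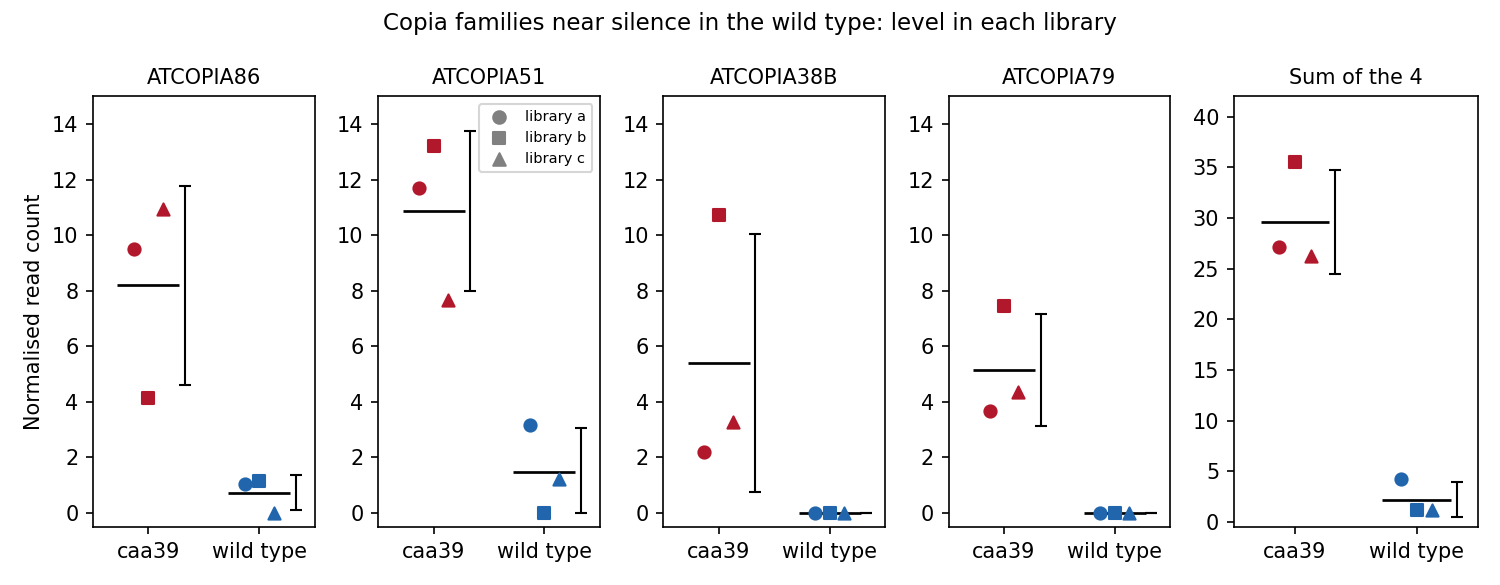
Level of each Copia family in each library, in normalised reads, for caa39 (red, left) and the wild type (blue, right), with the sum of the 4 families in the last panel on its own scale. Symbols are the solved libraries a, b and c, horizontal lines are means and bars are ± 1 SD (n = 3 each, drawn no lower than 0). All caa39 symbols lie above all wild-type symbols in each panel, and ATCOPIA38B has 1 library at 10.7 with the others at 2.20 and 3.28.

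ATCOPIA86 and ATCOPIA51 had a few wild-type reads, while ATCOPIA38B and ATCOPIA79 had none in any wild-type library. Such low counts do not show that the wild-type levels of these pairs differ. A count of 0 was taken to allow up to 3 reads over the wild-type group, a mean of 1.14 normalised reads. That lies above the measured wild-type mean of ATCOPIA86, 0.737, and below that of ATCOPIA51, 1.47. ATCOPIA86 had 13, 5 and 10 reads in caa39 libraries a, b and c, against 1, 1 and 0 in wild-type libraries a, b and c. That is 9.52, 4.13 and 10.9 normalised reads in caa39, against 1.06, 1.15 and 0 in the wild type. The wild-type signal of this family is thus 2 single reads, while each caa39 library gave at least 5. ATCOPIA86 averaged 8.20 ± 3.59 normalised reads in caa39 and 0.737 ± 0.640 in the wild type (SD, n = 3 each). Pooled reads gave a ratio of 10.6 (exact 95% counting interval 2.67 to 91.6). The ratio of means, 11.1, was 14.2 without wild-type library a and 15.5 without library b, which hold 1 read each, and 7.41 without library c, which holds none.

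ATCOPIA51 had the most reads of the 4 families in both genotypes. It had 16, 16 and 7 reads in caa39 libraries a, b and c, against 3, 0 and 1 in wild-type libraries a, b and c. In normalised reads these were 11.7, 13.2 and 7.66 in caa39, against 3.18, 0 and 1.22 in the wild type. The means were 10.9 ± 2.88 in caa39 and 1.47 ± 1.60 in the wild type (SD, n = 3 each). Here the caa39 libraries were close to each other, and the wild-type spread was as large as the wild-type mean. Pooled reads gave a ratio of 7.36 (exact 95% counting interval 2.66 to 28.4). Wild-type library a, with 3 of the 4 wild-type reads, weighed on this value: the ratio of means, 7.42, was 17.9 without library a and 4.95 without library b.

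ATCOPIA38B had 3, 13 and 3 reads in caa39 libraries a, b and c, against 0 in each wild-type library. Its normalised level was 2.20, 10.7 and 3.28 in these caa39 libraries, a mean of 5.41 ± 4.66 (SD, n = 3). Library b gave 68.4% of the caa39 reads of this family, and without it the caa39 mean was 2.74. The deposited wild-type mean reads 1 for this family, although the overall mean leaves 0 for the wild type, so the deposited fold is not given as measured. With a count of 0 the floor was set at 3 reads over the wild-type group, which is a mean of 1.14 normalised reads. This floor is a chosen setting, so the bounds drawn from it are not strict limits. Against that floor ATCOPIA38B was at least 4.78-fold higher in caa39, taking its caa39 reads as exact. The bound was 2.31 without caa39 library b and 3.07 without wild-type library a, since the floor then rests on less sequence.

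ATCOPIA79 had 5, 9 and 4 reads in caa39 libraries a, b and c, and again 0 in each wild-type library. These were 3.66, 7.44 and 4.38 normalised reads in caa39, a mean of 5.16 ± 2.01 (SD, n = 3). Library b held 50.0% of the caa39 reads of this family, and the other caa39 libraries lay close together. Its wild-type cell is also filled with 1. Against the same floor it was at least 4.53-fold higher in caa39, again taking its caa39 reads as exact. Leaving out caa39 library b put this bound at 3.47, and leaving out wild-type library a put it at 2.91. With a mean of 2.58 over both genotypes, ATCOPIA79 has the lowest mean of all listed families.

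The spread between the caa39 libraries was set beside the spread that counting such small read numbers gives by itself. For ATCOPIA51 and ATCOPIA79 the SD was 0.916 and 0.940 times the counting value. For ATCOPIA86 the SD was 1.35 times and for ATCOPIA38B 2.12 times the counting value, and the median over all 83 named families was 1.115. ATCOPIA38B had the widest spread between mutant libraries of the 4 families. The families did not follow 1 order of libraries. ATCOPIA51, ATCOPIA38B and ATCOPIA79 were highest in caa39 library b, where ATCOPIA86 was lowest. Of the 83 named families, 32 were highest in caa39 library a, 32 in library b and 19 in library c. ATCOPIA86 made up 35.1% of the reads of the 4 families in caa39 library a, 11.6% in library b and 41.7% in library c. ATCOPIA38B made up 8.11%, 30.2% and 12.5% in the same libraries.

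Element lengths were not used, so read numbers do not rank the families by transcript abundance. By reads per family in caa39 the order was ATCOPIA51, ATCOPIA86, ATCOPIA38B and ATCOPIA79, and each mean differed from the next by less than the larger of their SDs.

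Among the 25 listed Copia families these 4 were a minor share of the RNA. They held 0.575% of the listed Copia reads in caa39 (104 of 18077, exact 95% interval 0.470% to 0.697%) and 0.0343% in the wild type (6 of 17475, exact 95% interval 0.0126% to 0.0747%). Their share of the summed level of listed Copia families was 0.518%, 0.671% and 0.531% in caa39 libraries a, b and c, against 0.0629%, 0.0175% and 0.0185% in wild-type libraries a, b and c. The mutant share was higher in every library, which follows largely from choosing listed families by a low wild-type level. The sum of the 25 listed Copia families was lower in caa39. Copia families that are not on the list are not in these sums. The 4 families gained 27.4 normalised reads in all, which was 3.38% of the 811 gained by the 12 listed Copia families that rose. The 13 listed Copia families that fell lost more, with a summed difference of −2280 normalised reads.

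The highest wild-type mean of the 4 families was 1.47, for ATCOPIA51, well inside the limit of 10. Above the limit, the next listed Copia families were ATCOPIA70 at 14.6 and ATCOPIA95 at 16.2. ATCOPIA95 averaged 38.6 ± 26.2 normalised reads in caa39 and 16.2 ± 3.54 in the wild type (SD, n = 3 each), with 83 of its 138 caa39 reads in library b. ATCOPIA70 had 0, 3 and 1 reads in caa39 libraries a, b and c, against 0, 0 and 36 in wild-type libraries a, b and c. Its wild-type mean therefore comes from 1 library, and the remaining wild-type libraries held no read of it. ATCOPIA21, which the rule leaves out, had 5, 10 and 8 reads in caa39 libraries a, b and c and none in the wild type.

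**Figure D2:**
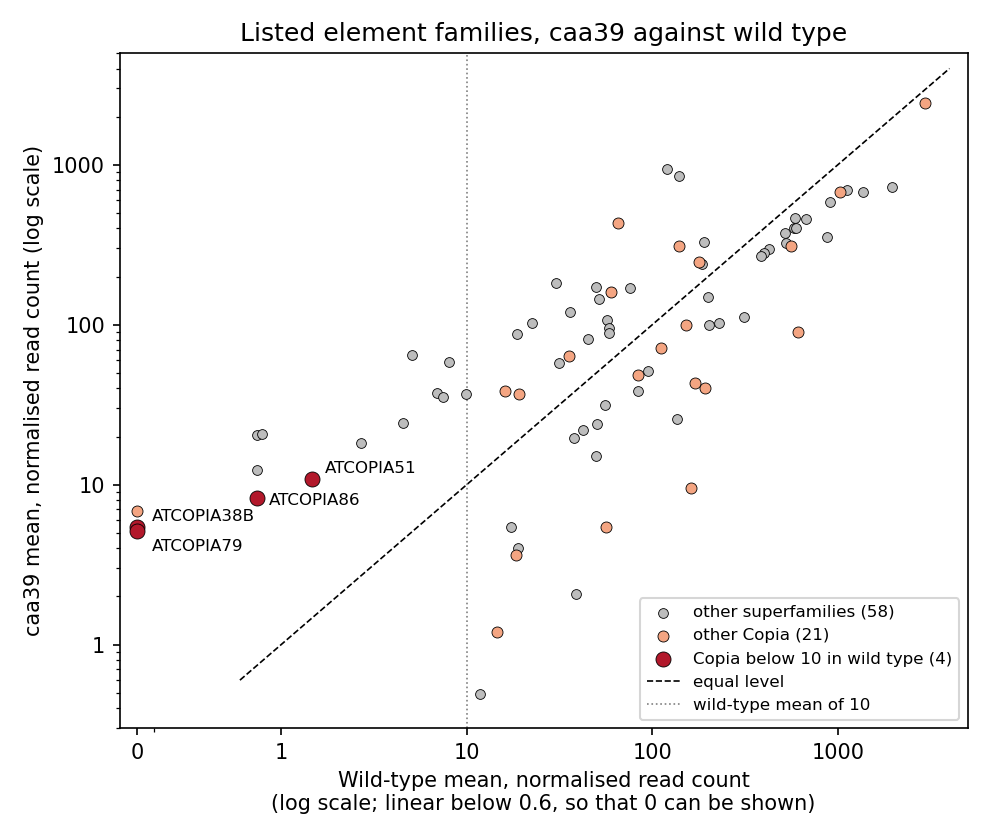
Mean level of the 83 named element families in caa39 (vertical axis, log scale) against the wild type (horizontal axis, log scale with a linear stretch to 0), in normalised reads. The 4 Copia families (red) lie left of the line at a wild-type mean of 10 and above the diagonal of equal level, as do all other families left of that line, and HELITRONY2 lies beneath the symbols at 0.

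Among all listed families 16 had a wild-type mean below 10: the 4 described here, ATCOPIA21 and 11 families of other superfamilies. All 16 were higher in caa39, against 48.2% of all 83 named families. A wild-type mean below 10 leaves little room for a listed fall, so the choice largely sets this direction. The signal of the Copia families lay at the low end of this group. Their caa39 means ran from 5.16 to 10.9 normalised reads, against 5.46 to 64.3 with a median of 24.3 in the others. Wild-type means ran from 0 to 1.47 in the Copia families and from 0 to 9.88 in the others. The Copia families gained 5.16 to 9.40 normalised reads each, against 5.46 to 59.3 in the others, which include ATENSPM1A, a CACTA DNA transposon family, and ATGP10, a Gypsy retroelement family. ATENSPM1A had 230 reads in caa39 and 13 in the wild type, and ATGP10 had 210 reads in caa39 and 21 in the wild type.

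Folds of the 4 Copia families were set beside those of the 11 families of other superfamilies. On the log2 scale with 0.5 added to each mean, their median ratio was 3.16, against 2.80 in the 11 other near-silent families and −0.35 over all 83. With no value added, and with a bound in place of the ratio for families at 0 in the wild type, the medians were 2.57 in the Copia families, 2.75 in the 11 others and −0.35 over all 83. The order of the medians thus turned with the treatment of families at 0. ATHILA6B, a Gypsy family of pericentromeric repeats, and ATDNA12T3A, a DNA transposon family, had ratios of 27.2 and 26.0 from pooled reads, with as few wild-type reads as ATCOPIA86. Their exact 95% counting intervals, 7.26 to 229 and 6.94 to 219, overlap that of ATCOPIA86. At the low end of the 11, RathE2_cons, a repeat family, had a ratio of 3.83 (exact 95% counting interval 2.50 to 6.08).

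**Figure D3:**
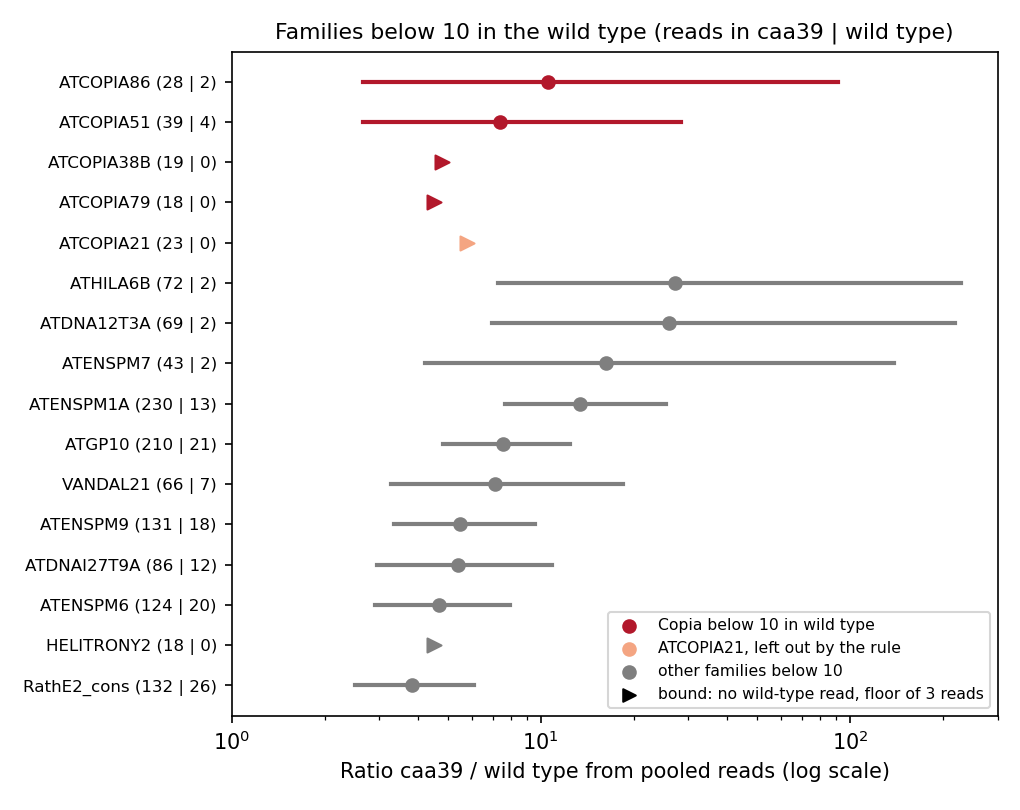
Ratio of caa39 to wild type from pooled reads (log scale) for the 16 listed families with a wild-type mean below 10, with the reads of caa39 and of the wild type beside each name. Points with bars are ratios with exact 95% counting intervals, and arrowheads are bounds for families with no wild-type read, set against a floor of 3 reads. The intervals of ATCOPIA86 and ATCOPIA51 reach down to 2.67 and 2.66 and overlap the interval of every other family drawn with one.

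The adjusted p of these families lay at the high end of the near-silent group. It was 0.0233 for ATCOPIA86, 0.0239 for ATCOPIA38B, 0.0264 for ATCOPIA51 and 0.0299 for ATCOPIA79 in the authors' deposited table. None of the 4 had an adjusted p below 0.01 in the authors' deposited table, against 10 of the 11 other near-silent families. The remaining one was HELITRONY2, whose adjusted p is 0.0260 there, again from the authors' deposited table. Of all 83 named families 62 lay below 0.01 in that table, and 15 of the 25 listed Copia families. ATCOPIA21, the Copia family that the rule leaves out, has 0.00768 in the authors' deposited table with 23 reads, fewer than ATCOPIA86 or ATCOPIA51. These values put the families on the list and are not further support for their difference.

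Outside Copia, HELITRONY2, ATENSPM7 and ATDNA12T3A had the profiles most like the mean profile of the 4 families. Likeness was the Euclidean distance of log2 normalised reads plus 0.5 over the 6 libraries, and it was 1.64, 2.15 and 3.09 for these families. The 4 families themselves stood 1.46 (ATCOPIA79) to 2.57 (ATCOPIA51) from their own mean. HELITRONY2, a family of rolling-circle Helitron transposons, had 4, 7 and 7 reads in caa39 libraries a, b and c and none in the wild type. ATENSPM7, another CACTA family, had 16, 15 and 12 reads in caa39 libraries a, b and c, against 1, 1 and 0 in wild-type libraries a, b and c. Its wild-type reads fell in the same libraries as those of ATCOPIA86, and its caa39 libraries were more even, at 11.7, 12.4 and 13.1 normalised reads. All of these profiles share their libraries and a wild-type level near 0, so the likeness follows in part from the way the 4 families were chosen.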

How the data were processed

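Stranded mRNA libraries were made from aerial parts of 6 day-old seedlings, 3 of caa39 and 3 of wild-type Col-0, grouped by the labels. Chromatin and bisulfite libraries stayed out. Tools named in the submitters' processing notes are edgeR 1.12.0, FastQC 0.10.1 and Bowtie2, with TAIR10 as the build. The way family reads were counted and the program behind the p-values are not stated there.

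Per the file headers, the deposited signal of a genotype is a mean of normalised reads, the deposited fold is a ratio of caa39 over wild type, and the deposited log2 column holds the logarithm of that ratio. The authors deposited each p-value both raw and adjusted. The largest adjusted value is 0.0499, so the table lists families that passed. An entry of unassigned elements, with 28.3% of listed reads, stayed out of the counts of families. In 4 entries the wild-type cell holds exactly 1 where the overall mean leaves 0, and 0 was used.

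A group mean adds up the whole read numbers of 3 libraries, weighted by 1 constant per library. Integer relations among the 15-digit means gave 89 sets of constants for caa39 and 96 for the wild type that turn every mean into whole reads. The set with the fewest reads was taken (80196 reads for caa39, next 87244, and 74912 for the wild type, next 97836, over the distinct means). The 6 size factors of these sets have a geometric mean of 1.00, and 1 of 8544 pairings of sets, this one, came within 0.01 of 1. In the chosen set each mean had 1 solution within tolerances of 1e-14 (relative) and 2e-13 (absolute). Simulated means were solved correctly in 84 of 84 entries for each genotype. Their counts were drawn from the chosen sets with counting error only. The simulation therefore checks the solving and cannot show that the chosen sets are the true ones. SDs are of these solved values.

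Ratios of pooled reads were divided by summed size factors, with exact (Clopper-Pearson) 95% intervals. With 0 reads the floor was 3 reads over the group. No test between genotypes was run. Python 3.11.15 with scipy 1.17.1 and sympy 1.14.0 was used. The families, limits and comparisons were chosen with earlier results of these data known. The text names each of the 4 families, the 2 Copia families next above the limit, and the 3 most alike families outside Copia. It also names some of the other families below the limit, picked after their values were seen. No element sequences or annotated copies were used.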

Additional observations from a re-analysis of the deposited data

How the results depend on the processing

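The number of the 4 families listed as higher in caa39 was 0 at an adjusted p below 0.01, and 0 among families with a mean of at least 10 over both genotypes. Both are stricter limits, and all 4 families lie below that mean. It stayed at 4 with a wild-type limit of 5 or a 2-fold minimum and was 5 of 5 with ATCOPIA21, an alternative chosen after seeing the data. The limit of 5 and the 2-fold minimum keep the same 4 families, so they could not change the number. With a limit of 20, which adds ATCOPIA58, ATCOPIA70 and ATCOPIA95, it was 5 of 7, and ATCOPIA58 and ATCOPIA70 were lower in caa39. ATCOPIA13 and ATCOPIA21 also have a wild-type mean below 20 but stayed left out by name. ATCOPIA13 had 12.7, 23.0 and 21.9 normalised reads in wild-type libraries a, b and c. It was higher in caa39, at 42.5, 43.8 and 24.1 in libraries a, b and c. The summed log2 ratio of 3.75 kept within its SD between libraries, a wide margin of 1.09, under the alternatives tried. These ran from 3.11 without the families that have no wild-type reads to 4.67 without ATCOPIA51. The ratio spanned 3.44 to 4.65 when 1 library was left out, the highest without wild-type library a. Scaled to listed reads it was 4.05, and that scaling moved all families upward by a median of 0.30. The median log2 ratio of 3.16 was 2.51 with a pseudocount of 1 and 4.51 with 0.1, since 2 of the 4 families have no wild-type reads. It was 2.53 over the 7 families that the rule keeps with a limit of 20, and 2.91 to 3.43 with a library left out. Of 36 alternative values of single families, 36 were above 0, and 3 moved by more than the SD, all in ATCOPIA38B or ATCOPIA79 under another pseudocount. The values of ATCOPIA38B and ATCOPIA79 had to lie above 0, since these families have no wild-type read. All 4 families were also chosen on these means, so the count above 0 is no further support. No paired analysis was possible because replicate numbers are lost in the deposited means. Where no wild-type read was found, the floor of 3 reads allows a wild-type mean of up to 1.14 normalised reads.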

Other observations

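Near-silence was also seen on the mutant side. In caa39, 8 of the 25 listed Copia families had a mean below 10 normalised reads. ATCOPIA86, ATCOPIA38B, ATCOPIA79 and ATCOPIA21 are among them and were higher than in the wild type. The other 4 were lower in caa39: ATCOPIA74 at 9.51 against 162 in the wild type, ATCOPIA50 at 5.43 against 56.5, ATCOPIA58 at 3.64 against 18.4 and ATCOPIA70 at 1.19 against 14.6. For ATCOPIA70 the wild-type reads were 0, 0 and 36 in libraries a, b and c, and the genotypes overlapped. The limit was carried over to caa39 after the values were seen.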
